A study of Mus musculus with 15 samples.

Results

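A set of 39 genes of macrophages, other myeloid cells and antigen presentation was followed in the left ventricle of mouse hearts under pressure overload, with or without neuregulin, and of sham-operated controls. The genes were listed by name, with earlier results of these data known, and their rows were taken from the 15258 genes measured in each library. All 39 were present, and all 39 passed the filter on low values (a rate worth at least 10 reads in a library of median depth, in 5 or more libraries), so 0 failed it. Cx3cr1 and Aif1 passed it in 6 libraries and Ccr2 in 7. For Cx3cr1 these were 1 TAC NRG, 4 TAC saline and 1 sham saline library, for Aif1 2, 3 and 1 in the same order, and for Ccr2 3 TAC NRG and 4 TAC saline libraries. They comprise 9 genes associated with resident cardiac macrophages, 6 associated with recruited monocytes and the macrophages they form, 3 complement C1q chains, 6 general macrophage genes, 3 genes of ITAM adaptors and an Fc receptor, 2 NADPH oxidase subunits, 6 general leukocyte genes and 4 genes of MHC class II.

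The tissue came from male C57BL/6NRj mice, of unstated age. Mice of the TAC NRG group underwent transverse aortic constriction (TAC), in which the aortic arch is tied to a smaller bore so that the left ventricle pumps against higher pressure, and carried a minipump with neuregulin-1β (NRG), a growth factor that acts on ERBB receptors. TAC saline mice had the constriction and a minipump with saline, and sham saline mice had sham surgery and a saline minipump. No sham group received NRG, and the labels state neither dose nor duration. Each group held 5 libraries of bulk tissue RNA made by BRB-seq, in which RNA samples are barcoded, pooled and sequenced from the 3′ ends of transcripts. Whether each library represents its own mouse is not stated, so a p-value refers to the spread among these libraries, which may be technical.

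Macrophages are the most abundant leukocytes of the healthy heart. Resident macrophages, many of them seeded before birth, maintain themselves locally, clear debris and carry scavenger receptors such as the products of Lyve1, Mrc1, Cd163 and Folr2. Under injury or pressure load, monocytes that bear the chemokine receptor CCR2 enter from the blood and become macrophages with inflammatory and repair programs. A subset of cardiac macrophages and all dendritic cells load peptides on MHC class II for display to helper T cells, and macrophages make C1q, the recognition molecule of the classical complement pathway.

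The 3 H2 genes and the 3 C1q genes lie in 2 gene clusters, while Cd74 lies elsewhere. On GRCm38.p6, H2-Ab1, H2-Aa and H2-Eb1 are neighbours on chromosome 17, and C1qb, C1qc and C1qa are neighbours on chromosome 4. The stretches below are shown because class II promoters carry an X box and a Y box at a set spacing, where the RFX and NF-Y factors bind, and because the 2 C1q stretches hold the core recognised by PU.1, the myeloid factor encoded by Spi1, itself one of the 39 genes. They are from RefSeq promoters on GRCm38.p6, not the GRCm39 build of the reads, and run 5′ to 3′ on the strand of the gene. Capitals mark the X box core (GCAAC) and Y box (CTGATTGG) in the class II genes, and the PU.1 core (GAGGAA, or TTCCTC when it lies on the opposite strand) in the C1q genes.
H2-Aa, chr17:34287857-34287924, minus strand: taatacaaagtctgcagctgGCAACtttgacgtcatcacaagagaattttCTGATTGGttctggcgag
H2-Eb1, chr17:34305756-34305822, plus strand: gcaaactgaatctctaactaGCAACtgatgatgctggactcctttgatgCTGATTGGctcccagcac
C1qb, chr4:136886205-136886250, minus strand: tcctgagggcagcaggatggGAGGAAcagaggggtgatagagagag
C1qc, chr4:136893082-136893127, minus strand: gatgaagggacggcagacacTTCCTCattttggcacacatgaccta
The 2 class II boxes were 25 bases apart in H2-Aa and 24 bases apart in H2-Eb1. Promoters were available for 29 of the 39 genes, and the 250 bases before each start were searched on both strands. None was available for H2-Ab1, Cd74, C1qa, Spi1, Adgre1, Itgb2, Lyve1, Tyrobp, Cd14 or Csf1r, so these were not searched. GCAAC followed by CTGATTGG at a gap of 20 to 30 bases occurred in 20 of 32851 promoters (0.0609%), and among the 29 genes in H2-Aa and H2-Eb1 only. CTGATTGG alone occurred in 3.83% of all promoters. GAGGAA occurred in 23.3% of all promoters, a share of 25.9% counted per gene, and in 15 of the 29 (51.7%). A match describes letters in this window and is not a measured binding site.

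Every one of the 39 genes had reads in all 15 libraries, including the defining macrophage markers Cd68, a lysosomal glycoprotein, Tyrobp, a signalling adaptor, and C1qa. Together they took 0.0879% to 0.159% of reads in TAC NRG libraries, 0.106% to 0.215% in TAC saline libraries and 0.0913% to 0.130% in sham saline libraries. Library totals were 2.02 to 5.62 M reads, with TAC NRG 4 and TAC NRG 5 the shallowest. Mitochondrially encoded genes took 23.7% to 29.0% of reads in TAC NRG libraries, 26.0% to 29.6% in TAC saline libraries and 30.5% to 31.8% in sham saline libraries, and their part in the results below was not tested. Levels are given as CPM, obtained by undoing the log2 of the deposited values and dividing by 1000, and they include the authors' scaling and their added 0.5 read. Because reads come from 3′ ends and the annotation of those ends differs between genes, levels are compared between groups and not between genes. In bulk tissue, fewer cells of a type and less RNA per cell cannot be told apart.

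Within a group, many of these genes were high or low in the same library, so the 39 genes are not independent observations. TAC saline 4 was the highest of its group for 28 of the 39 genes, and TAC saline 3 the lowest for 23. Among TAC NRG libraries, replicate 3 was the highest for 27 and replicate 2 the lowest for 22. Results that rest on TAC saline 4 are therefore given with and without it.

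TAC saline against sham saline compares constricted with unconstricted hearts, both without NRG. Macrophage and leukocyte transcripts were higher in constricted hearts: 13 of the 39 genes rose and 1, Retnla, fell, with 25 not past the threshold (limma, adjusted p under 0.05 over 11018 genes). That is 33.3% of the genes higher, where 6.47% of all genes tested were called higher, and 2.56% lower, where 4.24% of all genes were called lower. The median log2 fold change of the 39 was 0.51, against -0.01 for all genes tested, and 34 of the 39 were positive. The 5 TAC saline libraries lay entirely above the 5 sham saline libraries for 9 genes, 23.1%, where 4.72% of all genes did so, and entirely below for 1, where 3.68% did so. Without TAC saline 4, 4 of the 13 were still past the threshold (Stab1, C1qa, Tyrobp and Il2rg), and those 4 passed under each of 25 alternative settings. Leaving out TAC saline 1 or TAC saline 2 gave 7 higher genes, sham saline 3 gave 6, and TAC saline 5, sham saline 1 or sham saline 5 gave 8. Over all alternatives, the adjusted p of the 9 genes that were lost reached between 0.0654 for C1qc and 0.138 for Fcer1g. When libraries were scaled by total reads alone, 17 of the 39 were higher and 1 lower, but 1078 of all 1269 calls were then higher, against 713 of 1180 on the authors' scaling.

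Tyrobp, whose product is the ITAM adaptor that carries signals of TREM2 and other myeloid receptors, had 30.5, 31.1, 24.8, 34.2 and 33.8 CPM in TAC saline libraries, against 19.9, 21.8, 16.7, 20.6 and 19.0 CPM in sham saline libraries. Every TAC saline library was above every sham saline library. Tyrobp rose by 0.65 ± 0.14 on the log2 scale (1.57-fold, limma adjusted p = 0.00384, at most 0.0165 under the alternatives). Fcer1g, the second adaptor of the set and the signalling chain of Fc receptors, averaged 35.5 ± 8.52 CPM in TAC saline libraries and 25.0 ± 4.17 CPM in sham saline libraries (SD, n = 5 each). It rose by 0.49 ± 0.15 (limma adjusted p = 0.0403), and this call was lost without TAC saline 4 (log2 fold change 0.37, adjusted p = 0.138). Fcgr3, an activating receptor for the Fc part of IgG, had a log2 fold change of 0.34 ± 0.17 and did not pass (limma adjusted p = 0.217). Fcgr genes are close paralogs, so reads may be shared among them.

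All 3 chains of C1q rose by nearly the same amount. C1qa had 53.9, 55.1, 45.2, 57.7 and 45.8 CPM in TAC saline libraries, against 29.5, 40.5, 34.6, 45.0 and 31.0 CPM in sham saline libraries. The groups did not overlap, although the lowest TAC saline value and the highest sham saline value were almost equal. C1qa rose by 0.53 ± 0.13 (limma adjusted p = 0.00997), C1qb by 0.55 ± 0.15 (adjusted p = 0.023) and C1qc by 0.50 ± 0.14 (adjusted p = 0.0192). C1qb and C1qc overlapped between the groups by 1 or more libraries, and without TAC saline 4 the log2 fold change was 0.48 for C1qb (adjusted p = 0.0688) and 0.42 for C1qc (adjusted p = 0.0654).

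Of the 6 general macrophage genes, 2 rose. Cd68 had 14.6, 16.4, 8.48, 16.2 and 15.5 CPM in TAC saline libraries, against 9.67, 8.84, 4.63, 14.2 and 4.94 CPM in sham saline libraries. TAC saline 3 stood below the other TAC saline libraries and within the sham saline range. Cd68 rose by 0.84 ± 0.25 (1.79-fold, limma adjusted p = 0.0344), and Adgre1, an adhesion receptor that marks mouse macrophages, rose by 0.67 ± 0.20 (adjusted p = 0.0334). Without TAC saline 4 the log2 fold change was 0.78 for Cd68 (adjusted p = 0.08) and 0.55 for Adgre1 (adjusted p = 0.11). The other 4 did not pass: Csf1r, the receptor for the macrophage growth factor CSF1, at 0.16, Aif1, an actin-bundling protein of macrophages, at 1.02, Ms4a7, a membrane protein of macrophages, at 0.66, and Spi1 at 0.59 on the log2 scale.

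**Figure D1:**
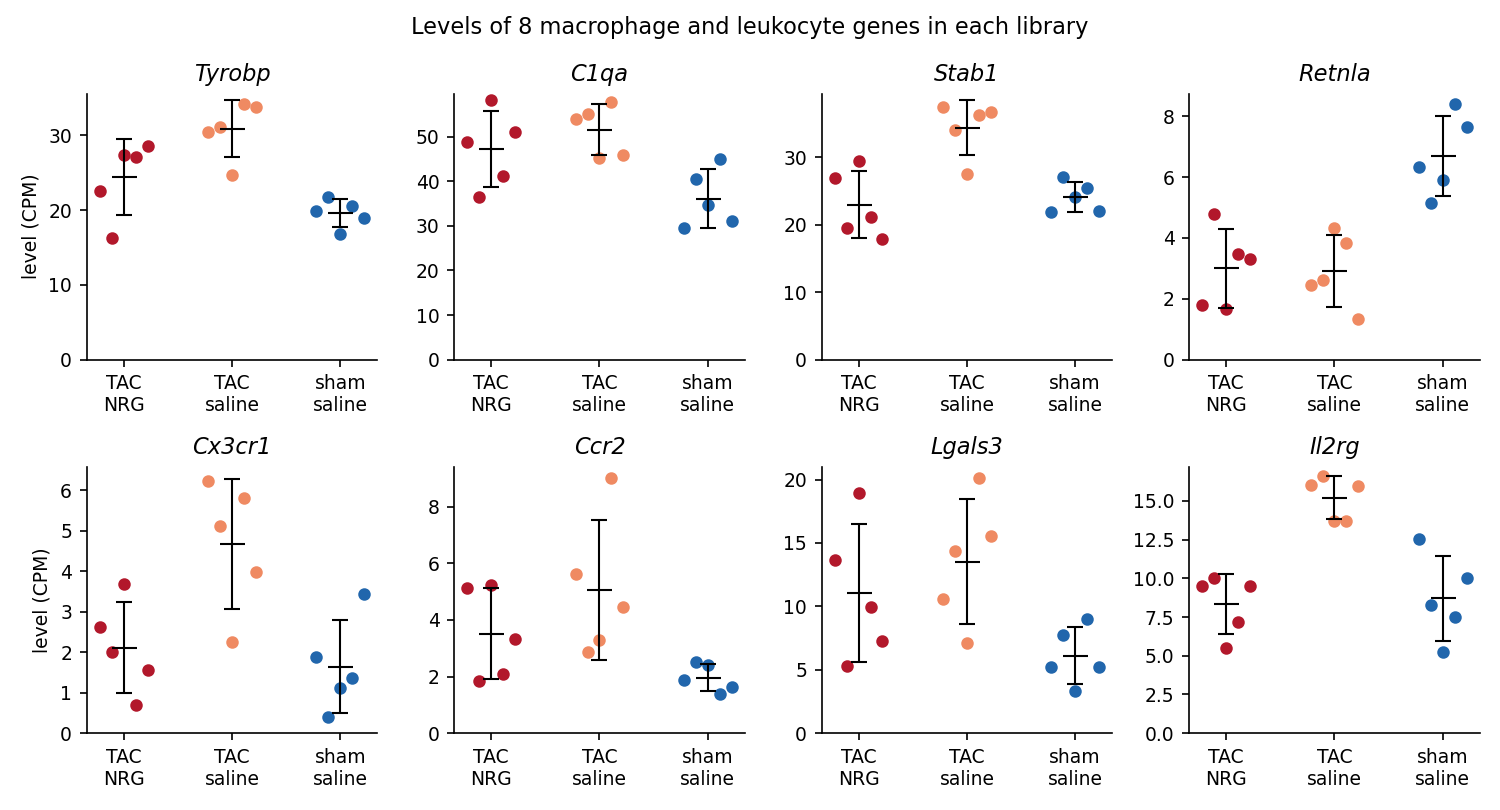
Levels in CPM (vertical axes, from 0) of 8 genes in each library, with TAC NRG at left, TAC saline in the middle and sham saline at right. Points are libraries in order of replicate number and bars are the mean ± SD of 5 libraries. TAC saline libraries lie above all sham saline libraries for Tyrobp, C1qa, Stab1, Ccr2 and Il2rg, and below all of them for Retnla.

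All 6 general leukocyte genes had positive fold changes, with 2 past the threshold and 4 without overlap between the groups. Il2rg, the shared gamma chain of several interleukin receptors, had 16.0, 16.6, 13.7, 13.7 and 16.0 CPM in TAC saline libraries, against 12.6, 8.31, 5.26, 7.48 and 10.02 CPM in sham saline libraries. The lowest TAC saline library was above the highest sham saline library. Il2rg rose by 0.86 ± 0.21 (1.81-fold, limma adjusted p = 0.00848). Coro1a, an actin regulator of leukocytes, rose by 0.68 ± 0.21 (adjusted p = 0.0355), and was at 0.67 without TAC saline 4 (adjusted p = 0.0673). Ptprc, the tyrosine phosphatase on the surface of all leukocytes, was at 5.41 to 8.82 CPM in TAC saline libraries and 2.54 to 4.73 CPM in sham saline libraries. Those ranges did not overlap, yet the adjusted p was 0.052. Cd53, a leukocyte tetraspanin, also showed no overlap and had a log2 fold change of 0.62 ± 0.21 (adjusted p = 0.0607). Laptm5, a lysosomal protein of blood cells, was at 0.57 ± 0.19 (adjusted p = 0.0566), and Itgb2, the shared beta chain of leukocyte integrins, at 0.47 ± 0.35 (adjusted p = 0.465).

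The 2 membrane subunits of the phagocyte NADPH oxidase, which makes superoxide, did not pass. Cybb had a log2 fold change of 0.45 ± 0.18 and Cyba of 0.39 ± 0.15 (limma adjusted p = 0.116 and 0.111).

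Resident genes moved in different directions. Of the 9, 2 rose, 1 fell and 6 did not pass, with a median log2 fold change of 0.36. Stab1, a scavenger receptor of tissue macrophages and some endothelium, had 37.4, 34.1, 27.5, 36.2 and 36.7 CPM in TAC saline libraries, against 21.9, 27.0, 24.1, 25.5 and 21.99 CPM in sham saline libraries. Stab1 rose by 0.51 ± 0.13 (limma adjusted p = 0.0147) with no overlap between the groups. Cx3cr1, the fractalkine receptor, had 6.22, 5.12, 2.25, 5.81 and 3.97 CPM in TAC saline libraries, against 1.89, 0.396, 1.12, 1.37 and 3.44 CPM in sham saline libraries. It rose by 1.74 ± 0.51 (adjusted p = 0.027), and was at 1.64 without TAC saline 4 (adjusted p = 0.0688). Cx3cr1 reached the filter's 5 libraries through TAC saline, the group where it was high. Reads per library were few, and TAC saline 3 lay inside the sham saline range. Cx3cr1 is also carried by a class of monocytes, so its place among resident genes is not exclusive.

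Retnla, a secreted resistin-like protein made by alternatively activated macrophages, went the other way. It had 2.46, 2.62, 4.33, 3.83 and 1.32 CPM in TAC saline libraries, against 6.34, 5.14, 5.90, 8.39 and 7.63 CPM in sham saline libraries. Every TAC saline library was below every sham saline library. Retnla fell by 1.29 ± 0.34 on the log2 scale (limma adjusted p = 0.0148), and the call was lost without TAC saline 5 (-1.46 to -1.03 over the alternatives, adjusted p = 0.0609).

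The other 6 resident genes did not pass. Lyve1, a hyaluronan receptor, was at 24.4 to 32.1 CPM in TAC saline libraries and 18.1 to 23.3 CPM in sham saline libraries, without overlap, and its log2 fold change of 0.40 ± 0.17 did not pass (limma adjusted p = 0.139). Folr2, a folate receptor, was at -0.04 on the log2 scale, Mrc1, the mannose receptor, at 0.29, and Cd163, the receptor for haemoglobin and haptoglobin complexes, at 0.61. Cbr2, a carbonyl reductase, was at 0.36 and F13a1, the A subunit of coagulation factor XIII, at 0.29.

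Recruited genes were all positive, with 2 of 6 past the threshold and a median of 0.62. Ccr2, the chemokine receptor that draws monocytes from marrow and blood, had 5.64, 2.87, 3.29, 9.02 and 4.45 CPM in TAC saline libraries, against 1.89, 2.51, 2.39, 1.37 and 1.65 CPM in sham saline libraries. The groups did not overlap, and TAC saline 4 was the highest. Ccr2 rose by 1.28 ± 0.36 (2.42-fold, limma adjusted p = 0.0246), and was at 1.04 without TAC saline 4 (adjusted p = 0.094). No sham saline library reached the filter's minimum for Ccr2, so it was tested because of its level in the TAC groups. Lgals3, a galectin made by activated macrophages, had 10.6, 14.4, 7.10, 20.2 and 15.5 CPM in TAC saline libraries, against 5.23, 7.78, 3.35, 9.001 and 5.24 CPM in sham saline libraries. It rose by 1.14 ± 0.31 (2.21-fold, limma adjusted p = 0.0185), and was at 0.98 without TAC saline 4 (adjusted p = 0.0632). Itgam, the alpha M integrin chain, was at 0.66, Trem2, a lipid-sensing receptor, at 0.58, Cd14, a co-receptor for bacterial lipopolysaccharide, at 0.21 and Lyz2, macrophage lysozyme, at 0.16, none past the threshold. Reads of Lyz2 may be shared with its neighbour Lyz1.

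In the 4 genes of MHC class II, 1 library carried far higher levels than the rest. Cd74, the invariant chain that guides class II molecules to the compartment where they are loaded, had 66.9, 72.1, 67.7, 202 and 58.8 CPM in TAC saline libraries, against 80.4, 94.3, 72.9, 81.3 and 74.9 CPM in sham saline libraries. TAC saline 4 was far above every other library, and the other 4 TAC saline libraries were below all 5 sham saline libraries. H2-Aa, the alpha chain of the I-A molecule, had 51.0, 42.6, 57.7, 139 and 42.4 CPM in TAC saline libraries, against 59.7, 75.8, 69.7, 57.8 and 65.1 CPM in sham saline libraries. Again the other 4 TAC saline libraries were below all 5 sham saline libraries. H2-Ab1, its beta chain, was at 41.4 CPM in TAC saline 4 and 10.9 to 25.1 CPM in the other TAC saline libraries, against 15.4 to 22.5 CPM in sham saline libraries. H2-Eb1, the beta chain of the I-E molecule, was at 72.6 CPM in TAC saline 4 and 24.4 to 32.4 CPM in the other TAC saline libraries, against 29.2 to 45.5 CPM in sham saline libraries. The same library was therefore the highest for all 4 genes.

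With all libraries, none of the 4 class II genes passed in TAC saline against sham saline, and their log2 fold changes were 0.04 for Cd74, -0.14 for H2-Aa, -0.12 for H2-Ab1 and -0.07 for H2-Eb1. Without TAC saline 4 they were -0.28, -0.44, -0.44 and -0.35 in the same order, so Cd74 changed sign, and none passed (limma adjusted p = 0.0828 for H2-Aa, the lowest of the 4). Scaled by total reads alone, with all libraries, they were 0.15, -0.03, -0.01 and 0.04, so the sign of H2-Eb1 also depends on the scaling. H2 genes are similar in sequence, so reads may be split among them.

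**Figure D2:**
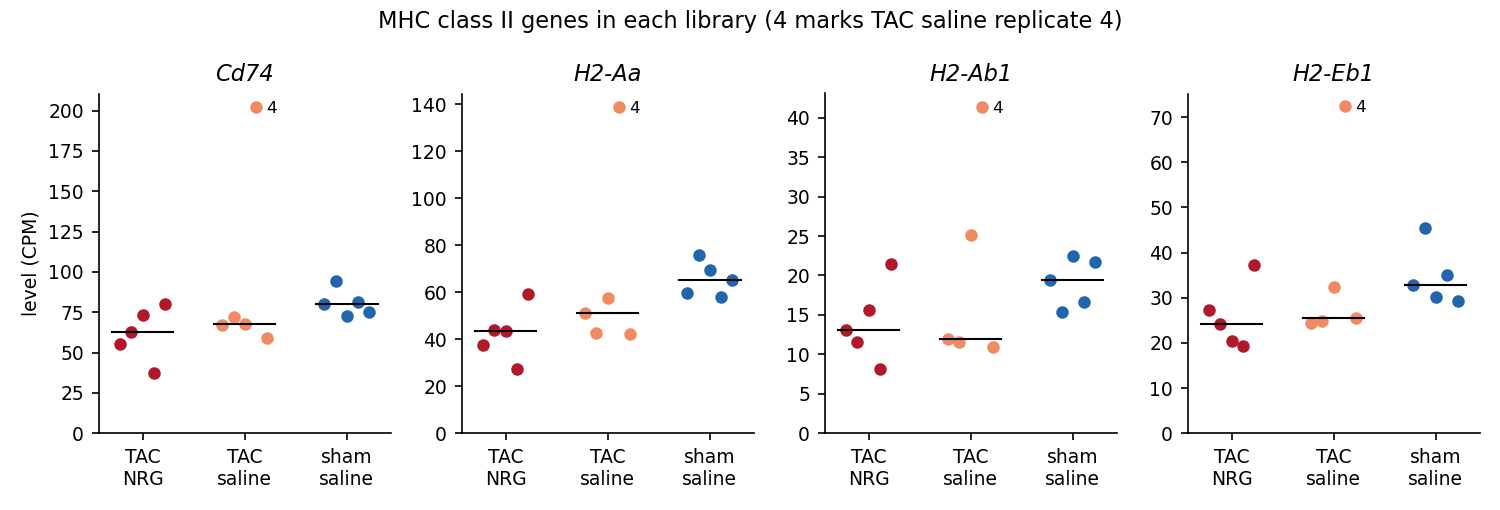
Levels in CPM (vertical axes, from 0) of the 4 MHC class II genes in each library, with TAC NRG at left, TAC saline in the middle and sham saline at right. Points are libraries, horizontal lines are group medians, and the number 4 marks TAC saline replicate 4, at 202 CPM of Cd74 and 139 CPM of H2-Aa, above every other library for each gene.

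TAC NRG against TAC saline compares constricted hearts with and without NRG. Most of the set was lower with NRG but little passed: 0 of 39 genes rose and 2 fell, Stab1 and Il2rg, 5.13% of the genes, where 0.626% of all genes tested were called lower and 0.672% higher. The median log2 fold change of the 39 was -0.24, against -0.01 for all genes tested, and 33 of the 39 were negative. Part of this rested on TAC saline 4. Without that library the median was -0.19 for resident and 0.01 for recruited genes, against -0.24 and -0.13 with it. Folr2, Itgam and Aif1 then changed sign, to 0.01, 0.12 and 0.04. With all libraries, 7 of the 39 had an unadjusted limma p under 0.05, and so did 1691 of all 11018 genes tested, a similar share. TAC NRG libraries lay entirely below TAC saline libraries for 1 gene, 2.56%, where 1.25% of all genes did so.

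Stab1 had 26.9, 19.6, 29.4, 21.1 and 17.9 CPM in TAC NRG libraries, against 37.4, 34.1, 27.5, 36.2 and 36.7 CPM in TAC saline libraries. The groups overlapped in 1 library each, TAC NRG 3 lying above TAC saline 3. Stab1 fell by 0.60 ± 0.13 (limma adjusted p = 0.023). Il2rg had 9.54, 10.003, 5.48, 7.20 and 9.50 CPM in TAC NRG libraries, against 16.0, 16.6, 13.7, 13.7 and 16.0 CPM in TAC saline libraries. All 5 TAC NRG libraries were below all 5 TAC saline libraries, and Il2rg fell by 0.90 ± 0.21 (adjusted p = 0.0268). Both calls were lost without TAC NRG 4, without TAC saline 1, without TAC saline 5 and without TAC NRG 4 and 5 together, where the adjusted p was 0.197 for Stab1 and 0.11 for Il2rg. Stab1 alone was lost without TAC NRG 5, without TAC saline 4 (adjusted p = 0.0563) and with only the 2 groups in the fit, and Il2rg alone without TAC NRG 3 and without TAC saline 2. Over the alternatives the log2 fold change was -0.69 to -0.46 for Stab1 and -0.97 to -0.75 for Il2rg.

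Among the other genes, Cybb had 8.98, 9.83, 14.6, 9.52 and 7.29 CPM in TAC NRG libraries, against 15.8, 13.1, 14.7, 22.4 and 13.6 CPM in TAC saline libraries. Its log2 fold change of -0.67 ± 0.18 did not pass (limma adjusted p = 0.0643). For Cybb this was -0.54 without TAC saline 4 (adjusted p = 0.171) and -0.82 without TAC NRG 3, where it passed (adjusted p = 0.0179). All 4 class II genes were negative, from -0.53 for H2-Aa to -0.38 for H2-Eb1, and none passed. Without TAC saline 4 they were -0.15 for Cd74, -0.23 for H2-Aa, -0.07 for H2-Ab1 and -0.09 for H2-Eb1. Cx3cr1 was at 0.697 to 3.69 CPM in TAC NRG libraries and 2.25 to 6.22 CPM in TAC saline libraries, a log2 fold change of -1.26 ± 0.51 that did not pass (adjusted p = 0.232). All 3 C1q chains were negative, from -0.26 for C1qb to -0.14 for C1qa. Cd68, Laptm5 and Coro1a were each at 0.02, and Trem2, Cd14 and Retnla were the remaining positive genes, at 0.34, 0.11 and 0.04.

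Blood transcripts were higher in TAC NRG than in both other groups. All 5 of the haemoglobin and haem synthesis genes tested rose in TAC NRG against TAC saline and against sham saline, and their summed level was 1702 to 3487 CPM in TAC NRG libraries, 979.6 to 1473 CPM in TAC saline libraries and 904 to 2221 CPM in sham saline libraries. Hbb-bt, a beta-globin gene, rose by 1.05 ± 0.22 (limma adjusted p = 0.0125), Hba-a1, an alpha-globin gene, by 1.03 ± 0.22 (adjusted p = 0.0157) and Alas2, the haem synthesis enzyme of red cells, by 1.06 ± 0.23 (adjusted p = 0.0159). All 3 calls were lost without TAC NRG 4 and with robust spread, and the adjusted p reached 0.167 for Hbb-bt over the alternatives. Against sham saline the log2 fold changes were 0.97 ± 0.22 for Hba-a1, 0.93 ± 0.22 for Hbb-bt and 0.96 ± 0.23 for Alas2 (adjusted p = 0.00306, 0.00412 and 0.00463), calls lost without TAC NRG 4 and 5 together (adjusted p at most 0.0739). In TAC saline against sham saline 0 of the 5 passed, with Hbb-bs at -0.16 and Hbb-bt at -0.13. Haemoglobin took 0.366% of reads in TAC NRG 4, 0.350% in TAC NRG 5 and 0.189% to 0.222% in the other TAC NRG libraries, against 0.107% to 0.161% in TAC saline libraries. The part of blood in the results for the 39 genes was not tested.

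TAC NRG against sham saline uses the sham libraries of the first comparison and the TAC NRG libraries of the second, so the 3 comparisons are not independent. The 5 blood transcripts were higher in this comparison too. Here 4 of the 39 genes rose and 2 fell, 10.3% higher, where 8.74% of all genes tested were called higher, and 5.13% lower, where 7.39% were called lower. Both shares are near those of all genes. The median log2 fold change of the 39 was 0.27, against -0.01 for all genes, and 28 were positive. Groups did not overlap for 1 gene, Retnla, 2.56% of the set and lower in TAC NRG, where 5.45% of all genes were lower without overlap. No gene of the set was higher without overlap, where 6.23% of all genes were.

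Retnla had 1.80, 4.78, 1.66, 3.48 and 3.31 CPM in TAC NRG libraries, against 6.34, 5.14, 5.90, 8.39 and 7.63 CPM in sham saline libraries. It fell by 1.25 ± 0.34 (limma adjusted p = 0.0131), and the call held under each of the 24 alternatives in which it was tested (adjusted p at most 0.0414). Cd68 had 13.96, 9.83, 19.0, 14.6 and 14.4 CPM in TAC NRG libraries, against 9.67, 8.84, 4.63, 14.2 and 4.94 CPM in sham saline libraries. It rose by 0.86 ± 0.25 (adjusted p = 0.0221), and Coro1a rose by 0.70 ± 0.21 (adjusted p = 0.0223), Laptm5 by 0.59 ± 0.19 (adjusted p = 0.0367) and C1qa by 0.38 ± 0.13 (adjusted p = 0.0453). In each of these 4 genes at least 1 TAC NRG library lay within the sham saline range. The count of higher genes was 0 without TAC NRG 3, 0 without sham saline 3, 0 without sham saline 5, 1 without TAC NRG 1, 2 without TAC NRG 5 and 2 without sham saline 1, and it was 8 without TAC NRG 2.

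H2-Aa had 37.7, 44.1, 43.4, 27.2 and 59.4 CPM in TAC NRG libraries, against 59.7, 75.8, 69.7, 57.8 and 65.1 CPM in sham saline libraries. It fell by 0.67 ± 0.23 (limma adjusted p = 0.0443), a call past the threshold under 11 of 25 alternatives (adjusted p at most 0.162). It was lost without each of the sham saline libraries in turn, without TAC NRG 1, 2, 3 or 4, and without TAC NRG 4 and 5 together. Scaling by total reads alone, robust spread, the replicate block and limma's voom also lost the H2-Aa call. The other class II genes were at -0.43 for Cd74, -0.51 for H2-Ab1 and -0.45 for H2-Eb1 and did not pass. Without TAC saline 4, which enters this comparison only through the shared estimate of spread, Cd74 passed as well (adjusted p = 0.0408) and H2-Aa had an adjusted p of 0.00283.

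**Figure D3:**
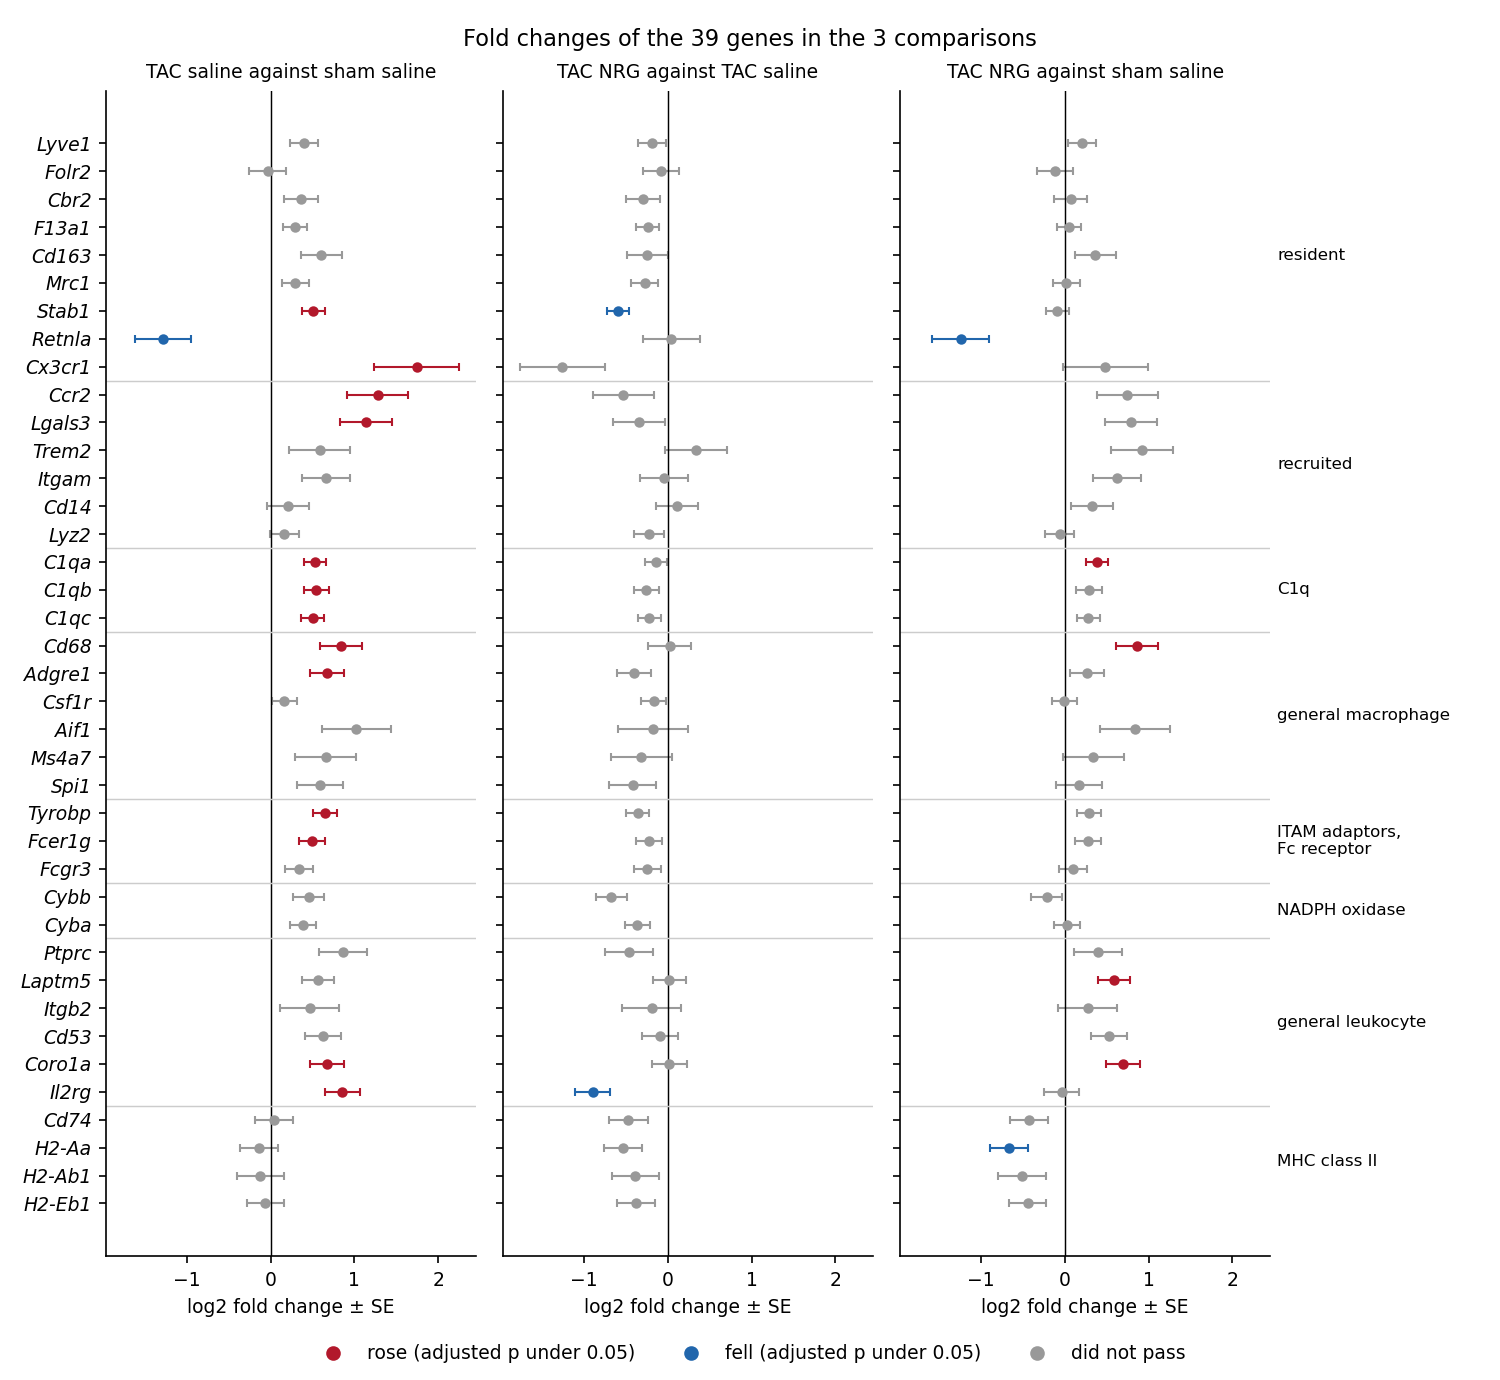
Log2 fold changes ± SE (horizontal axes) of the 39 genes, grouped by role, in TAC saline against sham saline (left), TAC NRG against TAC saline (middle) and TAC NRG against sham saline (right). Red points rose and blue points fell at an adjusted p under 0.05, and grey points did not pass. There are 13 red points at left, 0 in the middle and 4 at right.

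Resident and recruited genes were set side by side in each library by the median log2 level of each subgroup relative to the sham saline mean. The resident median was 0.10, -0.28, 0.53, -0.11 and -0.27 in TAC NRG libraries 1 to 5, 0.32, 0.43, 0.21, 0.45 and 0.34 in TAC saline libraries and -0.01, 0.19, -0.12, 0.10 and -0.08 in sham saline libraries. All TAC saline values were above all sham saline values, while TAC NRG values spanned both. The recruited median was 0.82, -0.08, 1.18, 0.64 and 0.22 in TAC NRG libraries, 0.75, 0.61, 0.12, 1.20 and 0.47 in TAC saline libraries and -0.19, 0.42, -0.03, 0.34 and -0.29 in sham saline libraries. For recruited genes both TAC groups overlapped the sham saline range.

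The recruited median exceeded the resident median in all 5 TAC NRG libraries, by 0.20 to 0.75. The difference was -0.09 to 0.74 in TAC saline libraries and -0.22 to 0.23 in sham saline libraries. Over genes, the median log2 fold change was -0.24 for resident and -0.13 for recruited genes in TAC NRG against TAC saline, and 0.05 for resident and 0.68 for recruited genes in TAC NRG against sham saline. These are descriptions of 9 and 6 genes that share their libraries, and no test of the difference was made. Of the 6 recruited genes, 4 (Ccr2, Trem2, Itgam and Cd14) were low enough to fail a stricter filter of 30 reads in the median library, and so were 2 of the 9 resident genes, Retnla and Cx3cr1. That filter left 2 recruited and 7 resident genes. In TAC NRG against TAC saline the recruited median was then -0.29 and the resident median -0.24, so their order reversed. In TAC NRG against sham saline the recruited median was then 0.37 and the resident median 0.05.

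**Figure D4:**
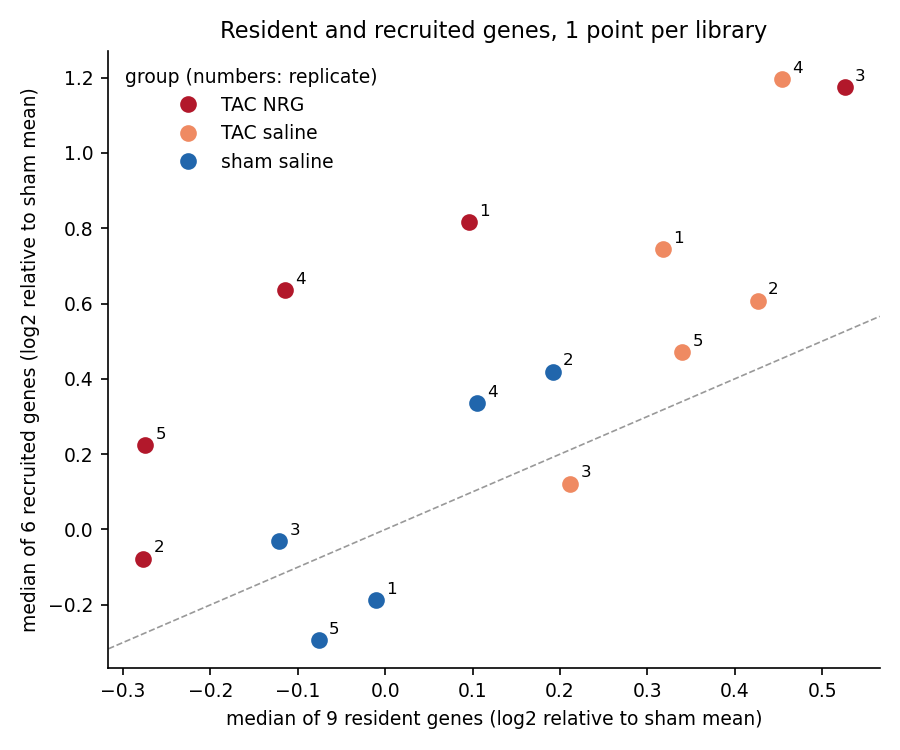
Median log2 level of 9 resident genes (horizontal axis) against that of 6 recruited genes (vertical axis), both relative to the sham saline mean, with 1 point per library, its replicate number beside it, and a dashed line of equality. All 5 TAC NRG libraries lie above the line, and TAC saline libraries lie right of all sham saline libraries.

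Other genes of the same pathways were counted from separate lists. The shares of all genes tested that were called, 6.47% higher in TAC saline against sham saline, 0.626% lower in TAC NRG against TAC saline and 8.74% higher in TAC NRG against sham saline, are the background for these counts. Against sham saline, 1 of 7 (14.3%) or 1 of 9 (11.1%) is near that background. Of 7 tested genes of monocytes and recruited macrophages outside the set, 6 rose in TAC saline against sham saline and 0 fell, with a median log2 fold change of 0.68. Vcan, which encodes the matrix proteoglycan versican, rose by 1.34 ± 0.20 (limma adjusted p = 0.000118), Thbs1, a matricellular thrombospondin, by 1.79 ± 0.35 (adjusted p = 0.00147) and Cd9, a tetraspanin, by 0.56 ± 0.10 (adjusted p = 0.000955). In TAC NRG against sham saline 6 of the 7 rose, with Vcan at 1.83 ± 0.20, Thbs1 at 2.14 ± 0.35 and S100a6, a calcium-binding protein, at 0.83 ± 0.13. Against TAC saline, 1 of the 7 fell in TAC NRG, Fabp5, a fatty acid binding protein, by 0.69 ± 0.15 (adjusted p = 0.0163). Fibroblasts and other heart cells also express Vcan, Thbs1, Cd9 and S100a6.

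Of 7 further resident macrophage genes tested, 1 rose in TAC saline against sham saline, the growth factor gene Igf1, by 0.58 ± 0.18 (limma adjusted p = 0.0397). Relative to sham saline, 2 rose in TAC NRG, Igf1 by 0.83 ± 0.18 and Vsig4, a complement receptor, by 1.44 ± 0.45. Vsig4 reached the filter's minimum in 3 TAC NRG, 3 TAC saline and 0 sham saline libraries. It was therefore tested because of its level in the TAC groups. Maf, a transcription factor of resident macrophages, fell by 0.52 ± 0.12 in TAC NRG against TAC saline (adjusted p = 0.0258). Of 14 other macrophage and phagocytosis genes tested, 6 rose and 1 fell in TAC saline against sham saline, 0 changed in TAC NRG against TAC saline, and 5 rose in TAC NRG against sham saline. Axl, a receptor for dying cells, rose by 0.44 ± 0.11 in TAC saline and by 0.50 ± 0.11 in TAC NRG, each against sham saline, and Mfge8, a bridging protein for dying cells, by 0.35 ± 0.09 and 0.33 ± 0.09. Alox5ap, a leukotriene synthesis protein, rose by 0.76 ± 0.20 in TAC saline and Ms4a6d by 1.25 ± 0.30 in TAC NRG, again against sham saline. Ms4a6d reached the filter's minimum in 5 TAC NRG, 5 TAC saline and 1 sham saline library, so it too was tested through the TAC groups. The 1 gene that fell in TAC saline was Cd36, a fatty acid and lipoprotein receptor, at -0.28 ± 0.09, named after its value was seen. Between the TAC groups Lamp1, a lysosomal membrane protein, was at 0.21 ± 0.07 and Mpeg1, a pore-forming protein of macrophages, at -0.52 ± 0.23.

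Of 9 other complement genes tested, 1 rose in TAC saline against sham saline, C4b, the fourth complement component, by 0.90 ± 0.25 (limma adjusted p = 0.0213). With NRG, C4b rose relative to sham saline by 1.08 ± 0.25 and C5ar1, the receptor for the complement fragment C5a, by 0.70 ± 0.24 (adjusted p = 0.0499), while 0 of the 9 passed between the TAC groups, with Cfp, the complement factor properdin, at -0.23 ± 0.20 and C3, the third complement component, at -0.18 ± 0.16. Of 7 genes that load peptide on class II or regulate class II genes, 1 rose in TAC saline against sham saline, Ifi30, a lysosomal thiol reductase, by 0.77 ± 0.20 (adjusted p = 0.0116). With NRG, Ifi30 rose relative to sham saline by 0.61 ± 0.20 and Lgmn, the lysosomal protease legumain, by 0.66 ± 0.14. Between the TAC groups none of the 7 passed, with H2-DMa, a peptide exchange factor, at -0.89 ± 0.33 and Rfxank, an X box factor subunit, at 0.35 ± 0.17.

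Of 10 genes of TYROBP and Fc receptor signalling tested, 0 passed in TAC saline against sham saline or between the TAC groups, although all 10 were positive in TAC saline against sham saline (median 0.30). The phospholipase gene Plcg2 was at 0.74 ± 0.24 (limma adjusted p = 0.052) and the phosphatase gene Ptpn6 at 0.73 ± 0.27 (adjusted p = 0.0804) there. Relative to sham saline, 2 rose in TAC NRG, the kinase gene Syk by 0.64 ± 0.17 and Plcg2 by 0.79 ± 0.24, and between the TAC groups the inhibitory receptor gene Sirpa was at -0.29 ± 0.11 and the kinase gene Lyn at -0.34 ± 0.14. Of 7 genes of the CSF1 axis and myeloid growth factor responses, 0 passed in TAC saline against sham saline (median 0.40), with the transcription factor gene Irf8 at 0.65 ± 0.23 and Csf1 at 0.37 ± 0.15. Between the TAC groups Csf1 was at -0.57 ± 0.15 (adjusted p = 0.0621) and Irf8 at -0.69 ± 0.23, and in TAC NRG against sham saline 1 rose, the transcription factor gene Cebpb, by 0.37 ± 0.12. Of 4 NADPH oxidase partners, 0 passed in any comparison, with Rac2, a GTPase of leukocytes, at 0.81 ± 0.31 and Ncf1, a cytosolic subunit, at 0.70 ± 0.31 in TAC saline against sham saline. Rac2 was at -0.34 ± 0.31 in TAC NRG against TAC saline, and Ncf1 was at 0.53 ± 0.31 and Rac2 at 0.47 ± 0.31 in TAC NRG against sham saline.

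Some calls in these lists did not pass under every alternative, although none of those named changed sign. In TAC saline against sham saline, Vcan, Thbs1, Cd9, Ifi30 and Axl were past the threshold under each of the 25 alternatives. Igf1 was lost without TAC saline 1, 4 or 5 and without sham saline 1, 2 or 5, and with robust spread (log2 fold change 0.48 to 0.71 over the alternatives, adjusted p at most 0.119), C4b without TAC saline 4 or 5 and sham saline 1 (0.73 to 1.04, at most 0.0763), Alox5ap without TAC saline 4 (0.63 to 0.90, at most 0.052) and Mfge8 without sham saline 3 (0.27 to 0.46, at most 0.054). In TAC NRG against TAC saline, Maf was lost without TAC NRG 4 or 5 and TAC saline 1 or 2 (-0.59 to -0.46, at most 0.169), and Fabp5 without TAC NRG 4 and TAC saline 1 or 5 (-0.83 to -0.55, at most 0.149). In TAC NRG against sham saline, Igf1, Vcan, Thbs1, S100a6, C4b, Syk, Lgmn and Axl were past the threshold under each of 25 alternatives, while Vsig4, Cebpb, C5ar1, Plcg2, Ifi30 and Mfge8 were lost without at least 1 library (adjusted p at most 0.171, for C5ar1).

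Markers of other leukocytes were near the limit of these libraries. The deposited values covered 2 of 5 listed T cell markers, 2 of 4 for B cells, 3 of 5 for neutrophils, 1 of 4 for NK cells, 3 of 5 for dendritic cells and 3 of 4 for mast cells. The T cell list summed to at most 3.46 CPM in any library, the B cell list to at most 2.09 CPM, the neutrophil list to at most 5.50 CPM and the NK cell list to at most 1.22 CPM, and 0 of their genes passed the filter. Dendritic cell markers summed to 6.04 to 11.9 CPM in TAC NRG libraries, 8.66 to 15.3 CPM in TAC saline libraries and 7.65 to 14.3 CPM in sham saline libraries. Nearly all of that sum was Zbtb46, with 559 reads over all libraries, against 21 for Cd209a and 7 for Xcr1. The sum therefore reflects that 1 gene and is no measure of dendritic cells. Mast cell markers summed to 1.33 to 6.36 CPM in TAC NRG libraries, 5.25 to 11.9 CPM in TAC saline libraries and 4.00 to 8.08 CPM in sham saline libraries. Kit, the receptor for stem cell factor, was at 0.26 ± 0.54 in TAC saline against sham saline. In TAC NRG against TAC saline it was at -2.12 ± 0.54 (limma adjusted p = 0.0504). Against sham saline Kit fell by 1.86 ± 0.54 in TAC NRG (adjusted p = 0.0209), a call lost without TAC NRG 3 or TAC NRG 5 (at most 0.078). Kit was the 1 mast cell marker tested, and reached the filter's minimum in 1 TAC NRG, 4 TAC saline and 5 sham saline libraries. Cpa3 (2, 1 and 1 in the same order) and Mcpt4 (1, 1 and 0) failed the filter, so a change in mast cells was not tested. Zbtb46, the 1 gene of the dendritic cell list that was tested, was at 0.00 in TAC saline against sham saline, -0.29 in TAC NRG against TAC saline and -0.29 in TAC NRG against sham saline, and did not pass.

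Non-leukocyte lists moved as well. Of 5 fibroblast markers, 3 rose in TAC saline against sham saline and 3 in TAC NRG against sham saline. Lum, a collagen-binding proteoglycan, rose by 1.11 ± 0.12 and 1.32 ± 0.12 in those comparisons, and Col1a1, a fibrillar collagen chain, by 1.70 ± 0.21 and 1.99 ± 0.21. The third was Tcf21, a fibroblast transcription factor, at 0.61 ± 0.15 in TAC saline (adjusted p = 0.00928) and Dcn, the proteoglycan decorin, at 0.31 ± 0.08 in TAC NRG (adjusted p = 0.00889). None passed between the TAC groups, where Lum was at 0.22 and Tcf21 at -0.26. The fibroblast list summed to 987.3 to 1374 CPM in TAC NRG libraries, 880.3 to 1261 CPM in TAC saline libraries and 759.8 to 800.6 CPM in sham saline libraries. Of 4 cardiomyocyte markers, Actc1, cardiac actin, rose by 0.39 ± 0.10 in TAC saline and by 0.45 ± 0.10 in TAC NRG, each against sham saline. Tnnt2, cardiac troponin T, rose by 0.35 ± 0.08 in TAC NRG against TAC saline (adjusted p = 0.0351), a call lost without TAC NRG 4 or 5 and TAC saline 1, 4 or 5 (at most 0.188). Myh6, the alpha myosin heavy chain, fell by 0.35 ± 0.09 in TAC NRG against sham saline (adjusted p = 0.00984). The 1 atrial marker tested, Myl4, an atrial myosin light chain, did not pass in any comparison, at 0.14 in TAC saline against sham saline, 0.07 in TAC NRG against TAC saline and 0.21 in TAC NRG against sham saline. All 5 endothelial markers were negative in TAC NRG against TAC saline, with a median log2 fold change of -0.24, as for the 39 genes, and 3 had an unadjusted p under 0.05. Of the 5, Cdh5, the endothelial cadherin, fell by 0.43 ± 0.09 (adjusted p = 0.0157), a call lost without TAC saline 1 or 5 (at most 0.0579). The list summed to 386.7 to 454.9 CPM in TAC NRG libraries, 468.2 to 545.4 CPM in TAC saline libraries and 435.8 to 476 CPM in sham saline libraries. In TAC saline against sham saline 0 endothelial markers passed, with Cdh5 at 0.28 and Pecam1, an endothelial adhesion protein, at 0.28, and 0 passed in TAC NRG against sham saline, with Kdr, a VEGF receptor, at -0.25 and Cdh5 at -0.16. The part of these cell types in the results for the 39 genes was not tested.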

How the data were processed

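Left ventricular RNA was read at transcript 3′ ends by BRB-seq in 15 libraries, 5 per group, which the labels put in batch 1. The genome build was GRCm39, per the submitters' processing notes. The sources used here name no aligner or counter. The authors deposited log2 values for 15258 genes per library. From their spacing, each is log2 of a library's factor times the sum of reads and 0.5. Undoing that factor gave whole reads (within 0.05) for 98.8% to 99.5% of values per library, and for 100% of those under 1000 reads. One read was worth 0.174 to 0.464 CPM, which sets the precision for low genes.

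The 39 genes and the other lists were chosen with earlier results of these data known. The deposited log2 values of the 15 libraries entered 1 model of 3 groups in limma 3.58.1 (R 4.3.3), its spread following the mean level. The filter asked for 2.95 reads per M, equal to 10 reads at median depth, in 5 or more libraries and for 15 reads over all. It passed 11018 genes and dropped 4240. Two-sided p-values were adjusted by Benjamini-Hochberg across those 11018 genes, at a threshold of 0.05. "Rose" and "fell" are used only past it. All 39 genes are named. From each other list, up to 3 genes past the threshold with the smallest adjusted p are named, or up to 2 with the smallest p where none passed. One gene named by this rule is not reported here. No duplicate libraries were found (chi-square per degree of freedom 2.16 to 10.9 over 30 pairs within groups). The fit was tested on simulated data. Alternatives covered scaling, filter, added reads, spread, groups in the fit, replicate block and leaving out libraries. limma's voom on the recovered reads was added after seeing the data. Promoter stretches came from RefSeq's GRCm38.p6 table. Python 3.11.15 with pandas 2.3.3, numpy 2.4.6 and matplotlib 3.10.9 made tables and plots.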

Additional observations from a re-analysis of the deposited data

Results flagged for a closer look

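In 10 of 117 sets of 5 libraries, each being 1 of the 39 genes in 1 group, 1 library stood apart from the other 4 by more than the 95% critical value for 5 samples (0.71 of the range). Chance alone gives about 1 in 20 such sets. Of the 10, 7 were in TAC saline 4.

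TAC saline 4 was high in MHC class II genes. Cd74 was at 202 CPM there and 58.8 to 72.1 CPM in the other TAC saline libraries, H2-Aa at 139 CPM against 42.4 to 57.7 CPM, and H2-Eb1 at 72.6 CPM against 24.4 to 32.4 CPM. The same library was high in Cybb, at 22.4 CPM against 13.1 to 15.8 CPM in the others, in Cbr2, at 12.2 CPM against 11.1 to 11.4 CPM, in Cd14, at 12.5 CPM against 5.02 to 6.62 CPM, and in Aif1, at 6.31 CPM against 2.53 to 3.12 CPM. Its depth, 3.65 M reads, and its mitochondrial share, 26.9%, lay within the range of its group.

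The other sets were single genes. F13a1 was 55.9 CPM in TAC saline 2 and 42.4 to 44.6 CPM in the other TAC saline libraries. Cd68 was 8.48 CPM in TAC saline 3 and 14.6 to 16.4 CPM in the others. Fcgr3 was 13.4 CPM in TAC NRG 3 and 10.003 to 10.8 CPM in the other TAC NRG libraries.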

How the results depend on the processing

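No call among the 39 genes changed direction under any alternative run. Leaving out 1 library at a time gave 4 to 16 genes higher and 0 to 1 lower in TAC saline against sham saline, 0 higher and 0 to 2 lower in TAC NRG against TAC saline, and 0 to 8 higher and 1 to 3 lower in TAC NRG against sham saline. Of the called genes, those past the threshold under every alternative that tested them were 4 of 14, 0 of 2 and 1 of 6 in those comparisons. For TAC NRG against TAC saline the count of lower genes was 1 with only the 2 groups in the fit and 0 without TAC NRG 4 and 5. For TAC NRG against sham saline the count of lower genes was 1, against 2, with scaling by total reads alone, a filter of 30 reads, robust spread, the replicate block, without TAC NRG 4 and 5, and with voom, and the count of higher genes was 1 without TAC NRG 4 and 5 and 2 with voom, against 4. A filter of 30 reads in the median library left out 12 of the 39 genes (Retnla, Cx3cr1, Ccr2, Trem2, Itgam, Cd14, Aif1, Ms4a7, Spi1, Ptprc, Itgb2 and Cd53), so the lower count in TAC saline against sham saline was 0. The causes of the other changes were not tested.

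Scaling by total reads alone moved the median over all genes to 0.10 (log2) in TAC saline against sham saline. The resident median was 0.27 to 0.44 and the recruited median 0.40 to 0.81 in that comparison when 1 library was left out. In TAC NRG against TAC saline the recruited median was -0.26 to 0.01, and it was positive without TAC NRG 2 and without TAC saline 4 (0.01 each). In TAC NRG against sham saline the resident median was -0.09 to 0.11. Same-numbered libraries of different groups did not deviate together (correlation of deviations -0.25 to 0.08 over 15 pairs). The replicate number was not used as a pairing, although such correlations cannot exclude one. With the replicate number as a block, 1049 genes were called in TAC saline against sham saline, against 1180. Fcer1g and Coro1a did not pass in that fit (limma adjusted p = 0.0522 and 0.0593). A count test on the recovered reads was planned and not run. Low genes have few reads, which limits what could be detected.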
